A study of Mus musculus with 11 samples.

Results

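The 49 genes described here are genes of DNA replication and mitosis, 19 of S phase and 30 of mitosis, taken by name from the 31444 genes named on the arrays. One probe stood for each gene, the one with the highest mean over all arrays. Of the 49 genes, 48 entered the fit across 20181 genes, and the probes of all 48 were well above background on all 11 arrays. The 49th, Ccne2, was well above background on 2 arrays only and has no test.

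RNA came from lymph node lymphomas of Black 6 mice that all carried the genotype c-myc-3'RR/p53+/-, that is, c-myc under an enhancer region (the 3'RR) of the antibody heavy chain locus, which is active in B lineage cells, together with 1 lost copy of p53. Labels gave the tumours' origin as plasma cell lymphoma (PCL, 4 samples), mantle cell lymphoma (MCL, 3 samples) or Burkitt lymphoma (BL, 4 samples), and the stage of all of them as mature B cell. Each sample of 0.2 µg total RNA had an RNA integrity number of 8 to 10 and its own one-colour array. The design text numbers the mantle cell tumours to 4 but counts 3, and 3 were analysed. The labels do not say that each tumour came from a different mouse, so a p-value reflects the spread among these arrays alone and part of that may be technical. The 3 types were on 3 different slides, so type and slide cannot be told apart, and there was no array of normal lymph node. In bulk tissue, fewer cells of a type and less RNA per cell cannot be told apart either.

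Cells copy their DNA in S phase, after cyclin E with its kinase helps to release E2F factors. These factors switch on the genes for origin licensing, the replicative helicase and the supply of nucleotides. The mitotic genes come on later, in G2, through Foxm1 and the B-Myb and MuvB complex, and encode the cyclin B and Cdk1 kinase, the spindle, the kinetochore and the machinery that ends mitosis. Myc drives B cells into this cycle, and Ki-67, a protein of dividing cells, is the usual measure of it in lymphoma pathology, where Burkitt lymphoma is known for a very high share of dividing cells.

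Promoters of both classes were read because the genes of a class are known to be switched on together. RefSeq promoter windows of assembly GRCm38.p6, 250 bases before to 50 bases after a gene's start, held an entry for 40 of the 49 genes (16 of S phase and 24 of mitosis). The windows of 6 genes are printed, 3 of each class, 5′ to 3′ on the gene's strand. Capitals mark matches, on either strand, to E2F letters (TTCGCGC, its variant TTGGCGC, and likewise the variants TTCCCGC and also TTGCCGC), to CCAAT, and to the letters of the cell cycle gene homology region, known as the CHR (TTTGAA and its variant TTCGAA). Each motif was searched on its own, so overlapping matches to different motifs all count.
Mki67, chr7:135716330-135716629, minus strand: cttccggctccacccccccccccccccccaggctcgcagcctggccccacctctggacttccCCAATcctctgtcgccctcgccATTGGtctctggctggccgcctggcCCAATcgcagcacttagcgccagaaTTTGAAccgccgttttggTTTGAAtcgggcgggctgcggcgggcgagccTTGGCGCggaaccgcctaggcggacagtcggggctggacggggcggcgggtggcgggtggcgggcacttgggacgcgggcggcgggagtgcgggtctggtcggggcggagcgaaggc
Top2a, chr11:99024140-99024439, minus strand: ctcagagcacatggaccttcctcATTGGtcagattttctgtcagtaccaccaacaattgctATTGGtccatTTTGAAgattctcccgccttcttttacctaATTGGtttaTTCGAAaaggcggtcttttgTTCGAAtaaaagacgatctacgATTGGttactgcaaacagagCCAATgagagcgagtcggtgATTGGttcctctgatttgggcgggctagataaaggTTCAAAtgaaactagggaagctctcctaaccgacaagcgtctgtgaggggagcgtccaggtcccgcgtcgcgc
Cdk1, chr10:69352863-69353162, minus strand: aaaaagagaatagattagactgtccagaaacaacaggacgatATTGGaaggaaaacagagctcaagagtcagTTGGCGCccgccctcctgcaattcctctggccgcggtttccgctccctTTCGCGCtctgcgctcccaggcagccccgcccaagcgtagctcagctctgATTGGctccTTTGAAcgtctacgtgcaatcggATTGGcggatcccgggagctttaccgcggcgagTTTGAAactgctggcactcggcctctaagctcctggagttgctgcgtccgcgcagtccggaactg
Ccne1, chr7:38107441-38107740, minus strand: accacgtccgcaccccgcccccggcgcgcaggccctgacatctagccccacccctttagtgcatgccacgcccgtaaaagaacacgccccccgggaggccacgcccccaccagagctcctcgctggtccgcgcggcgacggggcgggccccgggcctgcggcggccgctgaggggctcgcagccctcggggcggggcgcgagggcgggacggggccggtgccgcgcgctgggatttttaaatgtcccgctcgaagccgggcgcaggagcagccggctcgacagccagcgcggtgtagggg
E2f1, chr2:154569377-154569676, minus strand: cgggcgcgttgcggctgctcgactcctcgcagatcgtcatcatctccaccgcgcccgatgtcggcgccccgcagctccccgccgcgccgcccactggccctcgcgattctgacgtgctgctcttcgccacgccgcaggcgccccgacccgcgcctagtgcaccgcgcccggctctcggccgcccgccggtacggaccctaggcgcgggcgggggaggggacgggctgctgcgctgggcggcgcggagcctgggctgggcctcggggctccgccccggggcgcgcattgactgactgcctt
E2f2, chr4:136172024-136172323, plus strand: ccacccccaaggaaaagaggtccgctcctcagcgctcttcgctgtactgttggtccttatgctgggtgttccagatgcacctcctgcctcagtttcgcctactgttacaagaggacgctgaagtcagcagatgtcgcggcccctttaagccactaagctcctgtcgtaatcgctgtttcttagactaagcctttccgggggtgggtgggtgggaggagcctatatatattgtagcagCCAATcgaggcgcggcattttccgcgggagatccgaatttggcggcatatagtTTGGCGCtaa

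The 2 classes differed in these letters. E2F letters were present in 10 of 18 S phase windows (55.6%), in 3 of 25 mitotic windows (12.0%) and in 9.57% of all 32851 windows. CHR letters were present in 20 of 25 mitotic windows (80.0%), in 4 of 18 S phase windows (22.2%) and in 19.2% of all windows. CCAAT was present in 80.0% of mitotic, 66.7% of S phase and 37.4% of all windows. CCAAT and CHR letters occurred together in 18 of 25 mitotic windows (72.0%), against 7.52% of all windows. The window of Top2a held 6 CCAAT and 4 CHR matches, and that of Cdk1 held 2 E2F, 3 CCAAT and 2 CHR matches. The E-box CACGTG, a sequence that Myc and Max can bind, was present in 5.56% of S phase, 4.00% of mitotic and 7.15% of all windows. Of the printed windows, those of Ccne1 and E2f1 held none of the searched letters. Each rests on 1 listed start, and whether that is the gene's main start was not checked. Sequence outside the windows was not searched, so an empty window does not show that a gene's promoter lacks these letters. A match is a description of the sequence and not a bound site. E2f2, Mcm7 and Prc1 have 2 windows each, and the first of E2f2 is printed.

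Levels are log2 signals relative to the 75th percentile of their array, so 0 is the level of the 75th percentile spot and 1 unit is a 2-fold change. Differences between types are on the same log2 scale. Each was tested with limma and Benjamini-Hochberg adjustment over 20181 genes, and a gene was called at an adjusted p under 0.05.

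Few replication and mitosis genes were called between the 3 lymphoma types, at shares near or below those of all genes. Between PCL and MCL, 2 of 48 genes were called, cyclin E1 (Ccne1) and Aurora B (Aurkb), against 6.94% of all genes tested. Both were lower in PCL, as were 4.82% of all genes tested. Between PCL and BL, 0 of 48 were called by limma against 0.659% of all genes, and 10 of 48 had an unadjusted p under 0.05 against 17.6% of all genes. Between MCL and BL, 1 of 48 was called, Aurkb, against 6.64% of all genes, and 6.45% of all genes were called as higher in MCL. The F test for any difference among the types called Ccne1, Aurkb and Foxm1, 3 of 48 against 8.43% of all genes. Differences stayed within 1 log2 unit for 43 of 48 genes between PCL and MCL, 44 of 48 between PCL and BL and 46 of 48 between MCL and BL, against 82.5%, 87.3% and 86.8% of all genes tested. The 3 comparisons share their samples pairwise, so their counts are not independent.

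These counts depended on single arrays. For PCL and MCL the count was 4 without PCL1 (12.2% of all genes called), 1 without MCL2 (2.36%) and 0 without PCL2 (1.65%), PCL3 (2.73%), PCL4 (1.67%) or MCL3 (3.47%). Between PCL and BL it was 4 without PCL1 (5.32%). Between MCL and BL it was 0 without MCL1 (3.40%), MCL3 (4.95%) or BL4 (4.6%). MCL1 and PCL1 stood apart from their types in several of the values given here, and with both left out the counts were 7, 6 and 0, against 9.23%, 5.90% and 3.64% of all genes.

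Direction was less even than the calls. Of the 48 genes, 39 were lower in PCL than in BL and 36 were lower in MCL than in BL, while 25 were lower and 23 higher in PCL than in MCL. The median PCL minus BL difference was -0.22 for the 18 S phase genes and -0.23 for the 30 mitotic genes, against 0.09 for all genes tested. The median MCL minus BL difference was -0.12 and -0.26, against 0.06 for all genes. The median PCL minus MCL difference was -0.17 and 0.01, against -0.03 for all genes. Without MCL1 the medians of MCL minus BL became 0.08 and 0.03, against 0.09 for all genes. Most of the lower level of MCL against BL thus rested on that tumour.

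**Figure D1:**
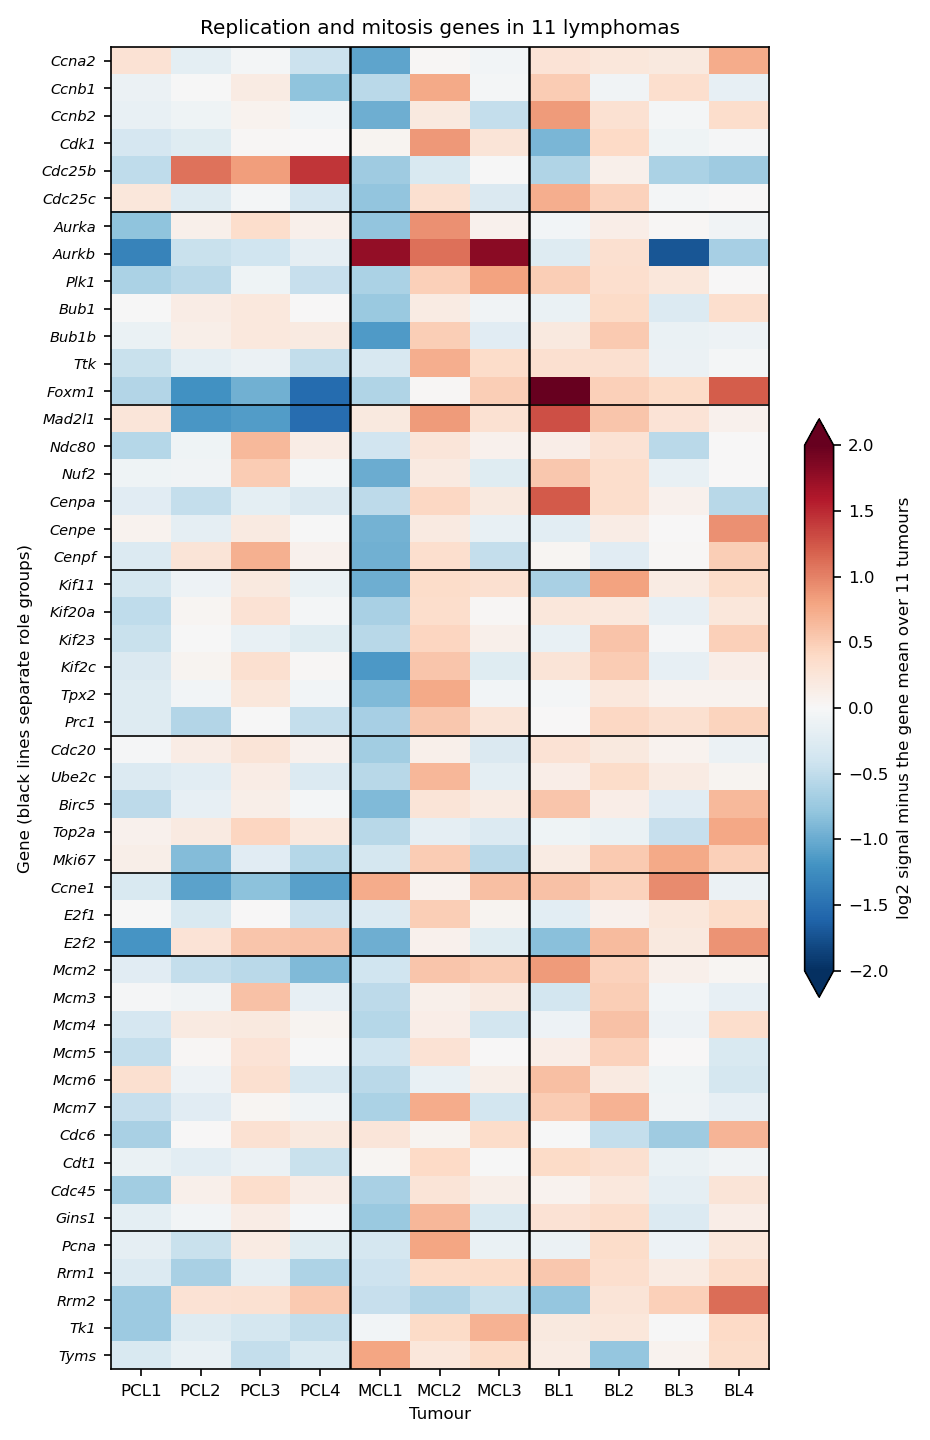
Level of each of 48 genes (rows, black lines separate groups by role, the mitotic groups above) in each of 11 tumours (columns), as log2 signal minus the gene's mean over the tumours. Most rows show no step between types; Aurkb stands out as high in the MCL tumours, Foxm1, Mad2l1 and Ccne1 as low in most PCL tumours, and MCL1 as low in most mitotic rows.

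Among the S phase genes, cyclin E1, which with Cdk2 drives cells from G1 into S phase, differed most. Ccne1 lay at 2.32, 1.57, 1.81 and 1.54 in PCL1 to PCL4, at 3.38, 2.71 and 3.24 in MCL1 to MCL3, and at 3.22, 3.09, 3.57 and 2.52 in BL1 to BL4. All 4 PCL tumours were below all 7 others, and the MCL and BL tumours overlapped. The PCL minus MCL difference was -1.30 ± 0.29 (SE; 2.46-fold lower, adjusted p = 0.0314), and the gene was called under 14 of 23 alternative settings, with adjusted p between 0.0037 and 0.094. The PCL minus BL difference was nearly the same size, -1.29 ± 0.27, but its adjusted p of 0.0621 missed the threshold. A second Ccne1 probe gave -1.80 and -1.50 for the same differences. Ccne2, the other cyclin E, was not well above background in any PCL or BL tumour or in MCL1, and it lay at -4.41 in MCL2 and -5.15 in MCL3.

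The E2F factors E2f1 and E2f2, activators of S phase genes, were not called in any comparison. E2f1 ranged from 0.68 to 1.12 in PCL, from 0.82 to 1.59 in MCL and from 0.89 to 1.46 in BL, and the types overlapped. E2f2 lay at 3.25 in PCL1 and at 4.70, 4.98 and 5.0 in the other PCL tumours. Its spread was wide within every type, from 3.46 to 4.52 in MCL and from 3.59 to 5.33 in BL, the widest within-type spread among the S phase genes (pooled SD 0.74).

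None of the 10 genes of origin licensing and the helicase was called, and 8 of them were lower in PCL than in BL, with a median difference of -0.14. They comprise Cdc6 and Cdt1, which load the helicase, its 6 subunits Mcm2 to Mcm7, and Cdc45 and Gins1, which make it active. Mcm2 was the exception in size. It lay at 2.20, 1.95, 1.90 and 1.55 in PCL1 to PCL4, at 2.03, 2.98 and 2.94 in the MCL tumours and at 3.28, 2.90, 2.52 and 2.47 in the BL tumours. All PCL tumours were below all BL tumours and MCL1 lay among the PCL tumours. The PCL minus BL difference of Mcm2 was -0.89 ± 0.27 (adjusted p = 0.133) and the PCL minus MCL difference -0.75 ± 0.30 (adjusted p = 0.155). The other helicase subunits are built into the same ring with Mcm2, yet their PCL minus BL differences ran from -0.42 for Mcm7 to 0.11 for Mcm3. Mcm5 ranged from 3.72 to 4.47 in PCL, 3.80 to 4.50 in MCL and 3.90 to 4.66 in BL, with no difference beyond -0.12. Cdc6 differed by -0.26 ± 0.34 between PCL and MCL and by 0.09 ± 0.31 between PCL and BL. Cdt1 was the 1 gene of these 10 whose PCL and MCL tumours did not overlap on the probe used, with a highest PCL level of 3.64, a lowest MCL level of 3.76 and a difference of -0.37 ± 0.20 (adjusted p = 0.28).

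Of the 5 genes for the replication clamp and for nucleotide supply, all were lower in PCL than in BL (median -0.27) and 4 were lower in PCL than in MCL (median -0.55), and none was called. Thymidine kinase 1 (Tk1), which salvages thymidine, lay at 2.45, 2.91, 2.83 and 2.68 in the PCL tumours, at 3.11, 3.56 and 3.87 in the MCL tumours and at 3.37, 3.41, 3.16 and 3.57 in the BL tumours. Every PCL tumour was below every other tumour. The PCL minus MCL difference of Tk1 was -0.79 ± 0.21 with an adjusted p of 0.0519, and it passed the threshold under 8 of 23 alternative settings. Thymidylate synthase (Tyms), the other route to dTMP, lay at -3.36 to -3.02 in PCL and -2.65 to -2.09 in MCL, without overlap, and the difference was -0.78 ± 0.27 (adjusted p = 0.112). BL tumours spanned both, from -3.65 to -2.52. The 2 subunits of ribonucleotide reductase, the enzyme that makes deoxynucleotides, did not go together. Rrm1 lay at 2.81 to 3.25 in PCL and 3.62 to 3.99 in BL, without overlap, a difference of -0.78 ± 0.21 (adjusted p = 0.111). Rrm2 lay at 2.07 to 3.32 in PCL and 2.02 to 3.91 in BL, a difference of -0.17 ± 0.39. The clamp gene Pcna was highest in MCL2 at 6.06 and ranged from 4.83 to 5.64 in the other tumours.

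Among the mitotic genes, the cyclins A2, B1 and B2, their kinase Cdk1 and the Cdc25 phosphatases that activate it had no call in any comparison. Cdc25b differed most, in the opposite direction to most of the set. It lay at 2.76, 4.35, 4.10 and 4.70 in PCL1 to PCL4, at 2.55, 2.96 and 3.26 in the MCL tumours and at 2.67, 3.36, 2.64 and 2.55 in the BL tumours. PCL2, PCL3 and PCL4 were above all MCL and BL tumours, whereas PCL1 lay among them. The differences of 1.05 ± 0.43 from MCL and 1.18 ± 0.39 from BL each had an adjusted p of 0.164. Without PCL1 they were 1.46 (adjusted p = 0.0149) and 1.58 (adjusted p = 0.0147). Cdc25c differed by 0.15 ± 0.30 from MCL and by -0.39 ± 0.27 from BL.

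Ccna2, the cyclin of late S phase and G2, was lower in all 3 MCL tumours (1.97, 3.05 and 2.98) than in all 4 BL tumours (3.31, 3.27, 3.23 and 3.77), a difference of -0.72 ± 0.29 (adjusted p = 0.212). It was 1 of 2 genes whose MCL and BL tumours did not overlap, with Aurkb, against 17.7% of all genes tested (14% higher and 3.7% lower in MCL). Ccnb2 showed -0.78 ± 0.28 between MCL and BL (adjusted p = 0.157). Ccnb1 differed by at most -0.35 in any comparison.

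The 6 mitotic kinases and the factor Foxm1 held the mitotic genes that were called. Foxm1, the forkhead factor that activates many mitotic genes, lay at -0.19, -0.82, -0.57 and -1.14 in PCL1 to PCL4, at -0.21, 0.42 and 0.88 in the MCL tumours and at 2.70, 0.86, 0.77 and 1.60 in the BL tumours. All PCL tumours were below all BL tumours, MCL1 lay among the PCL tumours, and only MCL3 reached the BL range. The PCL minus BL difference was -2.16 ± 0.43 (4.48-fold lower) with an adjusted p of 0.058, and the F test called the gene (adjusted p = 0.0322). A second Foxm1 probe gave -2.02. Under 5 of 23 alternative settings the PCL minus BL difference was called, with adjusted p from 0.0085 to 0.169. Plk1, the kinase of spindle assembly and mitotic entry, lay at 2.96 to 3.50 in PCL and 3.59 to 4.07 in BL, without overlap, a difference of -0.69 ± 0.29 (adjusted p = 0.256). Ttk, the kinase at the start of the spindle checkpoint, also did not overlap between PCL and BL, with -0.43 ± 0.23. Its margin was very narrow, with -1.885 in PCL3 against -1.882 in BL3. Aurka, Bub1 and Bub1b differed by at most 0.41 in size in any comparison.

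Aurora B, the kinase that corrects attachments of chromosomes to the spindle, was the one member called in 2 comparisons. Aurkb lay at -5.01, -4.12, -4.07 and -3.86 in the PCL tumours, at -1.91, -2.57 and -1.87 in the MCL tumours and at -3.94, -3.35, -5.38 and -4.34 in the BL tumours. All MCL tumours were above all others, and PCL and BL overlapped. The PCL minus MCL difference was -2.15 ± 0.45 (adjusted p = 0.0257) and the MCL minus BL difference 2.14 ± 0.45 (adjusted p = 0.0213), each about the same fold (4.43 and 4.40). Under the normexp background correction they shrank to -1.12 (adjusted p = 0.192) and 1.18 (adjusted p = 0.358). The partners of Aurkb in the chromosomal passenger complex did not share its pattern of levels, Birc5 with an MCL minus BL difference of -0.43 ± 0.32, Incenp with -0.35 ± 0.22 and Cdca8 with -0.33 ± 0.24.

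**Figure D2:**
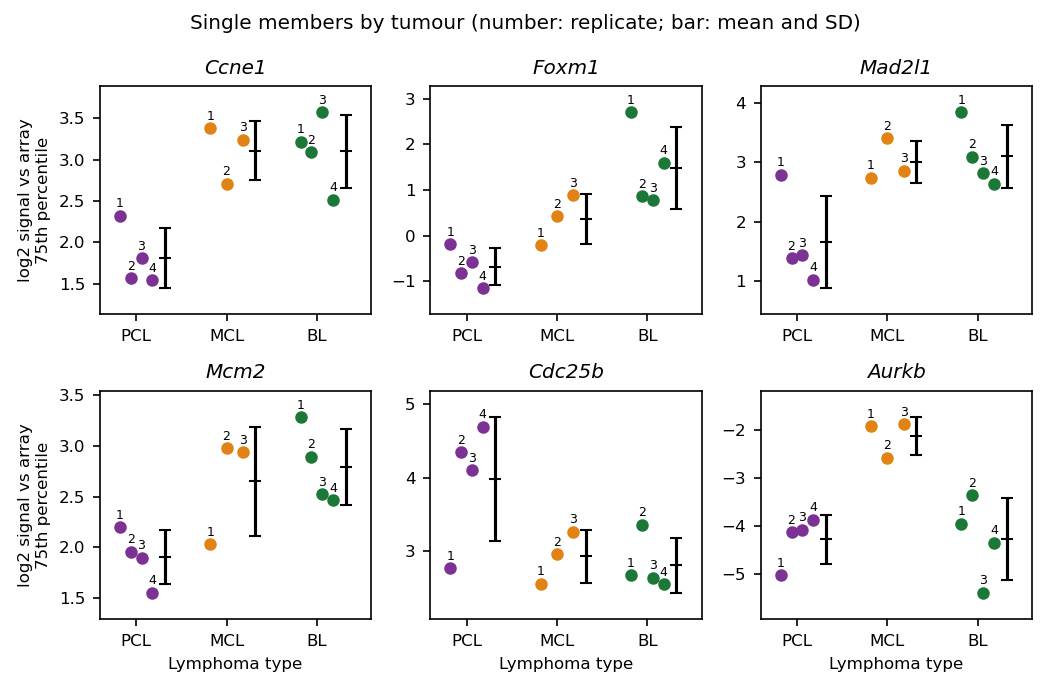
Levels of 6 genes in each tumour (points, numbered by replicate) with the mean and SD of each type (bars), on a log2 scale relative to the array's 75th percentile. For Ccne1 all PCL points lie below all others, for Foxm1 and Mcm2 below all BL points; PCL1 lies apart from PCL2 to PCL4 for Mad2l1 and Cdc25b on the probes plotted; for Aurkb the MCL points lie above all others.

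The Aurkb value comes from 1 probe with few G and C bases, and its sequence is printed with those of other probes of this kind. The probe is at chr11:68865105-68865164 (plus strand, build mm9 as in the files) and is 20% G and C. Cdk1 has 3 probes on chromosome 10, minus strand, of which the one used, at chr10:68801072-68801131, and another at chr10:68801053-68801112 are 18.3% G and C, while the one at chr10:68799513-68799572 is 45%. The Ccne2 probe is 15%. The first 30 of each probe's 60 bases are shown, with G and C in capitals.
Aurkb: ttCaGaaaaattatGaaGaaCaaCatttta
Cdk1, probe used: ttCttaatttCCtaCGtataaCttaattaa
Cdk1, overlapping probe: aaCttaattaaCatGtaaatattattCCat
Cdk1, distant probe: ataCaCtaaaaatttGGGtaGCCaGGaGGt
Ccne2: ttataaaCtattGttaaGatatGaaGtttt

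The 3 Cdk1 probes disagreed about MCL. The MCL minus BL difference was 0.55 for the probe used, 2.53 for the overlapping probe of the same composition and -0.12 for the distant probe. Over the whole array, 30 kept probes had at most 20% G and C, and their median MCL minus BL difference was 1.34, against 0.03 for all 25296 kept probes. MCL tumours were above all others for 14 of these 30 probes (46.7%), against 7.59% of all kept probes. The median of the 30 probes, after removing each probe's mean, was 1.01, 1.13 and 0.95 in the MCL tumours and between -0.55 and -0.29 in the other 8. Under the normexp correction their median MCL minus BL difference was 0.45. The probes used for the other 46 genes were 35% to 53.3% G and C. Of these 46 genes, 10 were higher in MCL than in BL, the median difference was -0.24, and for 0 of them were all MCL tumours above all others. Since each type had its own slide, a slide effect on such probes and a difference of Aurkb between the tumours cannot be told apart.

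**Figure D3:**
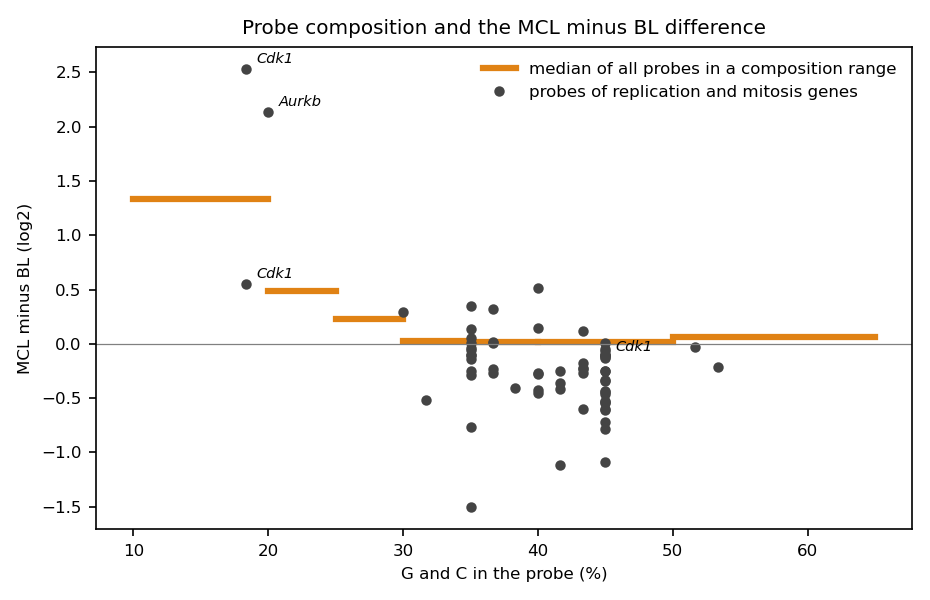
MCL minus BL difference (log2) of each kept probe of the replication and mitosis genes (points) against the share of G and C in the probe, with the median of all kept probes in each range of composition (orange bars). The Aurkb probe and 1 of 2 Cdk1 probes with few G and C bases lie above 2, in the range where the median of all probes is 1.34; the third Cdk1 probe, at 45%, lies near 0.

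The kinetochore and checkpoint group, which attaches chromosomes to the spindle and delays anaphase until all are attached, had no call among its 6 genes. Mad2l1, the inhibitor at the core of the checkpoint, lay at 2.79 in PCL1 and at 1.38, 1.43 and 1.02 in PCL2 to PCL4, against 2.74, 3.41 and 2.86 in MCL and 3.84, 3.1, 2.82 and 2.64 in BL. On this probe, the brightest of 3, PCL1 was level with the MCL and BL tumours and the other PCL tumours were below all of them. The difference from MCL was -1.34 ± 0.43 (adjusted p = 0.0904) and from BL -1.44 ± 0.40 (adjusted p = 0.111). Without PCL1 it was -1.72 (adjusted p = 0.0136) and -1.82 (adjusted p = 0.0146). The other 2 Mad2l1 probes, at lower signal, gave -0.93 and -0.88 against MCL and placed the tumours differently. On them PCL1 (-2.18 and -1.89) lay beside PCL3 (-2.22 and -1.98) and below all BL tumours, and MCL1 (-2.63 and -2.37) lay within the PCL range. Ndc80, Nuf2, Cenpa, Cenpe and Cenpf differed by at most 0.57 in size in any comparison, and a second Nuf2 probe, at lower signal, gave a PCL minus MCL difference of 2.17 against 0.43 for the probe used.

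All 6 spindle motors and partners (Kif11, Kif20a, Kif23, Kif2c, Tpx2 and Prc1) were lower in PCL than in BL, by -0.11 for Tpx2 to -0.63 for Prc1, and all 6 were lower in MCL than in BL, by -0.13 to -0.46. None was called. Prc1, which bundles the microtubules of the midzone, was the one whose PCL tumours (1.76 to 2.34) were all below the BL tumours (2.35 to 2.80), by a narrow margin.

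The proliferation marker Ki-67 (Mki67) lay at 5.09, 4.11, 4.76 and 4.41 in PCL1 to PCL4, at 4.63, 5.49 and 4.43 in the MCL tumours and at 5.15, 5.49, 5.73 and 5.45 in the BL tumours. All PCL tumours were below all BL tumours and the MCL tumours spanned both. The PCL minus BL difference was -0.86 ± 0.28 (1.82-fold lower) with an adjusted p of 0.157, and its 95% interval ran from -1.49 to -0.23. Topoisomerase II alpha (Top2a), which untangles sister chromosomes, ran the other way. On the probes used, it was the only member whose PCL tumours (2.77 to 3.12) were all above the MCL tumours (2.13 to 2.51), a difference of 0.56 ± 0.27 (adjusted p = 0.232). A second Mcm3 probe also had all PCL tumours (4.53, 4.54, 4.93 and 4.50) above the MCL tumours (3.37, 3.97 and 4.03), with a difference of 0.84 against 0.16 for the probe used. So did the second Nuf2 probe, near background, with -4.53, -3.90, -1.75 and -3.73 in PCL and -5.59, -6.40 and -4.93 in MCL. Cdc20 and Ube2c, which with the anaphase complex mark cyclin B and securin for destruction, differed by at most 0.41 in size. Survivin (Birc5) differed by 0.00 ± 0.32 between PCL and MCL and by -0.43 ± 0.30 between PCL and BL.

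Counting tumours that did not overlap gave 7 of 48 genes between PCL and MCL (14.6%, against 22.9% of all genes tested), with Ccne1, Cdt1, Tk1, Tyms, Aurkb and Cdk1 lower in PCL (13.8% of all genes) and Top2a higher (9.07% of all genes). Between PCL and BL there were 9 of 48 (18.8%, against 11% of all genes), and all 9 were lower in PCL, against 4.4% of all genes that were lower without overlap. These 9 were Ccne1, Mcm2, Rrm1, Tk1, Mki67, Plk1, Foxm1, Ttk and Prc1, and 7 of the 9 lie on chromosomes 6 and 7.

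Genes on chromosomes 6 and 7 were set apart because genes there were already known from these arrays to be lower in PCL, so their direction is no independent evidence. Of the 48 genes, 8 have probes there. Mcm2 (chr6:88833619-88833678), Mad2l1 (chr6:66490836-66490895) and Foxm1 (chr6:128324783-128324842) are on chromosome 6, and Ccne1, Rrm1, Plk1, Prc1 and Mki67 are on chromosome 7. All 8 were lower in PCL than in BL, with a median difference of -0.88, and 7 of the 8 did not overlap. The other 40 genes had a median of -0.16, and 2 of the 40 were lower without overlap. These 8 were among the 10 genes with the lowest PCL minus BL difference. Against MCL the medians were -0.70 for the 8 and 0.05 for the other 40. Among all genes tested, the 2656 on these chromosomes had a median PCL minus BL difference of -0.26, 62.0% were lower in PCL and 13.7% were lower without overlap, against 0.12, 38.1% and 3.00% of the other 17525.

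The tumours did not share this gap evenly. The median of the 8 genes minus the median of the other 40, each gene relative to its own mean over the tumours, was -0.69 in PCL2, -0.57 in PCL3 and -0.71 in PCL4. PCL1 had a gap of 0.02, and the MCL and BL tumours had gaps between 0.08 and 0.47. PCL1 was thus the lowest of the tumours outside PCL2 to PCL4. Other replication and mitosis genes were also lower in PCL than in BL on these chromosomes. All 8 of them there were lower, with a median of -0.92. Of the 8, 6 were lower without overlap, against 13.7% of all genes tested there. The 88 elsewhere had a median of -0.26. Of these, 11 were lower without overlap, against 2 of the 40 genes of the set and 3.00% of all genes elsewhere. Gene copy number was not measured here, and its part in these levels was not tested.

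**Figure D4:**
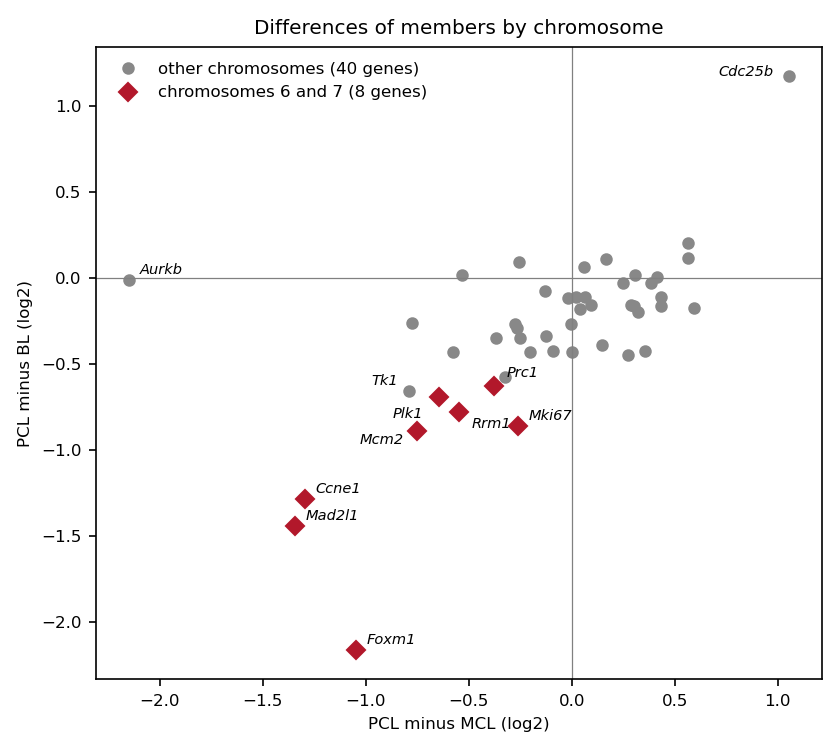
Difference of each of 48 genes between PCL and MCL (horizontal axis, log2) and between PCL and BL (vertical axis, log2), with the 8 genes on chromosomes 6 and 7 as red diamonds. The diamonds lie in the lower left, all below -0.6 on the vertical axis; both axes use the same PCL samples, so a shared direction is in part built in.

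Within MCL the tumours differed more than the means of the types did. The median of the mitotic genes, each relative to its mean over the tumours, had a mean of -0.07 in PCL, -0.11 in MCL and 0.15 in BL. It was -0.68 in MCL1, 0.39 in MCL2 and -0.02 in MCL3, the lowest and the highest of all 11 tumours in the same type. It ranged from -0.27 in PCL1 to 0.16 in PCL3 and from -0.01 in BL3 to 0.33 in BL2. Of the 30 mitotic genes, 29 were higher in MCL2 than in MCL1, with a median difference of 1.10, and the exception was Aurkb. Over all genes tested, 58.0% were higher in MCL2, with a median of 0.12. PCL3 was above PCL2 for 28 of 30 mitotic genes and above PCL4 for 28 of 30. BL2 was above BL3 for 27 of 30.

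Within MCL, S phase genes had the same order of tumours with smaller differences. Their median was -0.41 in MCL1, 0.28 in MCL2 and 0.08 in MCL3, and 14 of 18 were higher in MCL2 than in MCL1, with a median difference of 0.70. The S phase median minus the mitotic median stayed between -0.14 (PCL4) and 0.27 (MCL1), so no tumour had high S phase with low mitotic genes or the reverse beyond that range. Over the genes, the median pooled SD within a type was 0.37 for S phase and 0.42 for mitotic genes, against 0.42 for all genes tested.

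**Figure D5:**
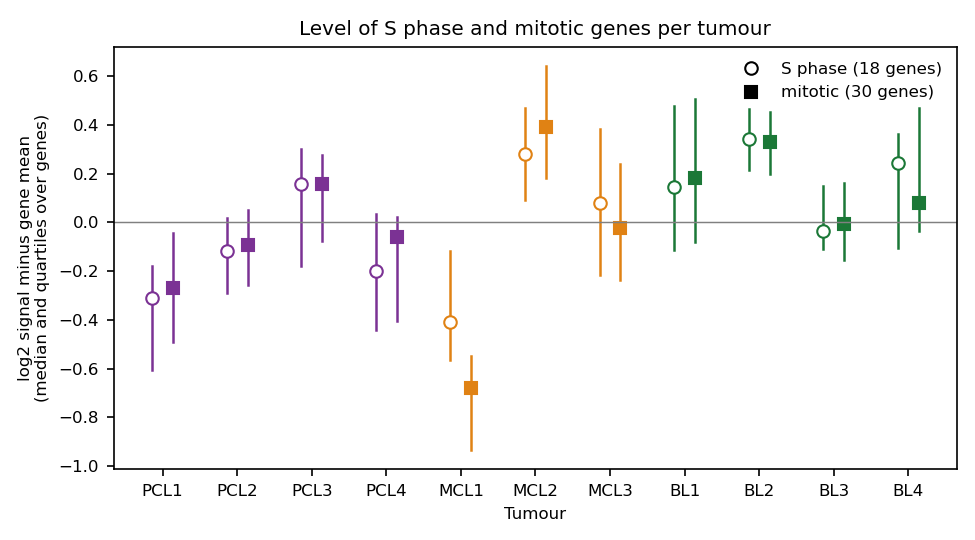
Median and quartiles, over genes, of the level of 18 S phase genes (open circles) and 30 mitotic genes (filled squares) in each tumour, as log2 signal minus the gene's mean over the tumours. MCL1 is the lowest tumour for both classes, at -0.41 and -0.68; MCL2 is the highest for mitotic genes, at 0.39; the ranges of the 3 types overlap.

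Markers of other cells moved with some of these tumours. Of 9 T cell markers, 8 were measured, and their median was 1.28 in MCL1, the highest of all tumours, and -0.61 in MCL2. MCL1 had an RNA integrity number of 10 and MCL2 one of 8, the lowest in the study. Of 12 macrophage markers, 11 were measured (Cd163 was not), and their median was 2.74, 1.75 and 2.02 in PCL2 to PCL4, -0.89 in PCL1 and between -2.09 and 0.25 in the other tumours. All 11 were higher in PCL than in MCL and in BL, and Msr1, Cd14 and Vcam1 were called against MCL. The macrophage markers Adgre1, C1qa, C1qc and Msr1 were not well above background in every MCL tumour. PCL1 was thus apart from PCL2 to PCL4 in its macrophage markers, in Cdc25b and in the chromosome 6 and 7 gap at once. All 7 granulocyte markers were measured, and their median was lowest in MCL1 (-2.25), low in BL1 (-2.17) and PCL1 (-1.90), 0.38 in MCL2 and highest in PCL2 (3.38). Of 6 erythroid markers, 3 were measured, with a median of -2.16 in MCL1 and -1.56 in PCL1, the lowest values, and of 2.26 in BL4 and 2.15 in MCL2, the highest. The part of these other cells and of RNA quality in the levels of replication and mitosis genes was not tested. The labelled B lineage origin had its markers: the B lineage markers Cd79a, Cd79b and Pax5 and all 6 plasma cell markers (such as Sdc1 and Jchain) were well above background on all 11 arrays. The median of 7 B lineage markers (Cd79a, Cd79b, Ms4a1, Pax5, Cd22, Ebf1 and Blnk) was -0.35 in MCL1 and 0.15 in MCL2, with means of -0.05 ± 0.36 in PCL (SD, n = 4), -0.12 ± 0.25 in MCL (n = 3) and 0.28 ± 0.09 in BL (n = 4). The mitotic medians were likewise lower in MCL1 than in MCL2, and the part of B lineage content in them was not tested. Plasma cell markers were higher in PCL than in BL for 6 of 6 genes and than in MCL for 4 of 6. By limma, 0 of 6 were called in either comparison (4 and 3 of 6 at an unadjusted p under 0.05, against 17.6% and 24.4% of all genes tested). The plasma cell median was -0.21 in PCL1, below the 0.38, 0.86 and 0.73 of PCL2 to PCL4. PCL1 was also below MCL1 (0.43), MCL3 (-0.16), BL3 (-0.12) and BL4 (-0.02).

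Other genes of the same pathways behaved much like the set. Of 42 further replication genes, 33 were lower in PCL than in BL (median -0.27) and 36 were lower in MCL than in BL (median -0.26). By limma, 0 were called in any of the comparisons. At an unadjusted p under 0.05 there were 6 genes between PCL and MCL (14.3%, against 24.4% of all genes tested). There were 9 between PCL and BL (21.4%, against 17.6%) and 6 between MCL and BL (14.3%, against 18.5%). Of 54 further mitosis genes measured among 55, 47 were lower in PCL than in BL (median -0.28) and 46 were lower in MCL than in BL (median -0.23). Cenpm was the 1 gene of these lists called in a comparison of 2 types. It is a subunit of the constitutive centromere network, and was lower in PCL than in MCL by -0.91 ± 0.21 (adjusted p = 0.0319). The F test called 1 of the replication genes, Pold1 (adjusted p = 0.0388), and 2 of the mitosis genes, Cdca3 (adjusted p = 0.0357) and Cenpm (adjusted p = 0.0499). Pold1 and Pold3, subunits of DNA polymerase delta, both on chromosome 7, had the largest differences of the replication list between PCL and MCL, -0.83 ± 0.32 and -1.12 ± 0.35. Pold1 had -1.39 ± 0.29 between PCL and BL (adjusted p = 0.0621). Cdca3, a trigger of mitotic entry on chromosome 6, had -1.26 ± 0.26 between PCL and BL (adjusted p = 0.0614), and Ncapd2, a condensin subunit also on chromosome 6, -1.08 ± 0.29. The primase subunit Prim2 had 1.47 ± 0.88 (adjusted p = 0.431) in that comparison. Between MCL and BL the largest were Prim2 at 0.94 ± 0.95, Chaf1b at -0.93 ± 0.25 (adjusted p = 0.0539), Cenpn at -0.87 ± 0.34 and Nek2 at -0.81 ± 0.35.

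Of 12 genes that restrain the cycle, 2 were called between PCL and MCL, where 6.94% of all genes were called, and 1 between MCL and BL, where 6.64% were. Wee1, the kinase that holds Cdk1 inactive, on chromosome 7, lay at -0.38, -1.13, -0.59 and -1.03 in the PCL tumours, at -0.26, 1.10 and 0.84 in the MCL tumours and at 0.16, 0.53, 0.49 and 0.65 in the BL tumours. All PCL tumours were below all others, and the PCL minus MCL difference was -1.34 ± 0.33 (adjusted p = 0.0394). E2f4, the E2F factor of the resting-cell repressor complex, was lower in PCL than in MCL by -0.72 ± 0.15 (adjusted p = 0.025) and higher in MCL than in BL by 0.78 ± 0.15 (adjusted p = 0.0141).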

How the data were processed

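The authors' deposited scanner files hold spot intensity on a linear scale, per the file headers from Agilent Feature Extraction version 10.7.3.1, with no normalization between arrays. The authors' deposited value table holds log2 values, a scale found from the data, and served as an alternative. The steps behind that table are not given in the sources used here. Of 43020 non-control spots per array, outlier spots were left out and spots of a probe averaged. Each array's 75th percentile (1072 to 1637 intensity units) was subtracted on the log2 scale, and a filter kept probes that 3 or more of 11 arrays had well above background (25296 probes, 20181 genes, the brightest probe per gene). Names came from RefSeq accessions or symbols of assembly GRCm38.p6 (26553 probes by accession, 2596 by symbol, 492 by older symbol, 9742 by the file's name), and probe coordinates are mm9. The position of a probe in exons or untranslated regions was not analysed here. Types were compared with limma 3.58.1 (R 4.3.3), with a mean per type over all 11 arrays, 8 residual and 2.01 prior degrees of freedom, and Benjamini-Hochberg adjustment. The fit was tested on simulated data. Alternatives covered background correction, scaling, filter, probe choice, samples, weights, variance model, array position as a block and each array left out, and 2 more were added after seeing the data (without MCL1 and PCL1, and only genes outside chromosomes 6 and 7). The genes, lists, alternatives and printed windows were chosen with earlier results of these data known. Genes given in full were the best-known gene of each role, every gene called and, per comparison, the 3 largest differences of each class. Of the further lists, called genes and the 2 largest differences of the replication and mitosis lists per comparison were named. Chromosomal passenger partners were chosen after their values were seen.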

Additional observations from a re-analysis of the deposited data

Results flagged for a closer look

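In 50 groups of 4 tumours, 2 results had 1 tumour far from the other 3 of its type, by Dixon's criterion, which chance alone meets in about 1 of 20 groups. E2f2 was at 3.25 in PCL1, below the 4.70 to 5.0 of the other PCL tumours. Cdc25b was at 3.36 in BL2, above the 2.55 to 2.67 of the other BL tumours. MCL, with 3 tumours, could not be examined in this way.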

How the results depend on the processing

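Over the settings tried, 0 of the results given here changed sign and were called in the other direction. Counts of called genes are given in the order PCL against MCL, PCL against BL, MCL against BL and any difference among types, and were 2, 0, 1 and 3. They were 0, 0, 0 and 0 with normexp, 3, 0, 0 and 3 with quantile normalization, 3, 1, 1 and 3 with the authors' deposited table, and 3, 1, 1 and 3 with an intensity trend. With quantile normalization 7.73%, 0.481%, 3.70% and 6.39% of all genes were called. With the deposited table it was 7.57%, 0.823%, 3.37% and 6.34%, and with the trend 6.14%, 0.823%, 4.89% and 7.08%. The counts were 2, 0, 2 and 3 with no filter, 3, 0, 2 and 4 with the mean of the probes, and 9, 7, 1 and 9 with array weights, where 21.9%, 10.8%, 5.56% and 23.6% of all genes were called. With the mean of the probes those shares were 6.34%, 0.704%, 6.08% and 7.88%, and with no filter 2.22%, 0.274%, 3.1% and 3.34%. With only the types compared the first 3 counts were 1, 0 and 0, against 3.68%, 0.580% and 1.44% of all genes. With MCL1 and PCL1 left out the 4 counts were 7, 6, 0 and 7, against 9.23%, 5.90%, 3.64% and 9.96%. Leaving out single arrays gave 0 to 4, 0 to 4, 0 to 1 and 0 to 5. It moved the median PCL minus MCL difference between -0.31 and 0.11 for S phase and between -0.37 and 0.24 for mitotic genes, so neither has a settled direction. Both PCL minus BL medians were negative under all 22 settings. Replicate numbers are array positions, and the labels do not tie them to animals. Array position as a replicate block gave 0, 0, 0 and 1, with 1.94%, 0.317%, 1.88% and 1.69% of all genes called. Tumours at the same position had a median correlation of 0.09 in their deviations, with 3 of 10 pairs over 0.1. Tumours of different types at different positions had a median of -0.02, with 3 of 30 pairs over 0.1. No pairing was assumed, because the labels state none. The cause of these changes was not tested. With normexp, 0.976%, 0.0644% and 0.322% of all genes were called in the 3 comparisons, and the median difference of all genes was 0.16, 0.12 and -0.10, against -0.03, 0.09 and 0.06 in the values reported. With no filter the called genes between PCL and MCL were Ccne2 and Aurkb. Probes near background include those of Aurkb, Ccne2 and Cenpf, 2 of the Cdk1 probes and the second Nuf2 probe. Cenpf had means of -4.14 in PCL, -4.70 in MCL and -4.25 in BL. The number of arrays limits the precision.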
